A study of Mus musculus with 2 samples.

Results

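The 10 genes described here were grouped under membrane repair and caveolae, the small pits of the plasma membrane. They are Dysf, Myof, Trim72, Capn3, Cav1, Cav2, Cav3, Cavin1, Cavin2 and Cavin4. They were picked by symbol, and each symbol was tied to a gene identifier through the deposited transcript tables. The tables hold 55536 annotated genes, of which 22015 are nuclear and protein-coding. All 10 were found, and each averaged over 100 expected counts, so no member was lost to a filter on low values.

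The libraries were total RNA of gastrocnemius, the main muscle of the calf, from B6CASTF1/J males (an F1 hybrid strain) aged 10 days. There was 1 group of 2 libraries, replicate 1 and replicate 2, each made from 300 ng of RNA. The labels number the animals separately under one donor code, and name neither a treatment nor a second condition. Reads from the parental alleles were not told apart in the tables, and the data describe levels in the tissue and the spread between 2 mice, with no test.

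Muscle fibres tear at the surface during normal contraction and are resealed within moments by vesicles that fuse at the wound. Dysferlin, a tail-anchored protein with calcium-binding C2 domains, takes part in that fusion, and TRIM72, also called MG53, gathers vesicles at the site. Caveolae are built from caveolins, which bend the membrane from its inner face, and from cavins, which coat the pit, and they are known as a membrane reserve that flattens under stretch. Some members are muscle types (Cav3, Cavin4, Trim72, Capn3 and, in large part, Dysf), while Cav1, Cav2, Cavin1, Cavin2 and Myof are widely expressed, with Cav1 and Cavin1 abundant in endothelium and fat. In humans, faults in the genes for dysferlin, caveolin-3 and calpain-3 cause limb-girdle muscular dystrophies.

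Depth was 38874862 expected counts for replicate 1 and 38160786 for replicate 2, and the 10 members took 0.130% and 0.142% of them. The tissue label stood beside high muscle fibre markers: 6 such genes summed to 67103 TPM in replicate 1 and 68951 in replicate 2. TPM, the unit of these tables, is a relative abundance scaled by transcript length, so levels of different genes can be set side by side. The tissue is a mixture. The summed level was 211.7 and 220.3 TPM for 8 endothelial markers, 363.8 and 418.5 TPM for 6 markers of mural cells (pericytes and smooth muscle), 3704 and 3321 TPM for 6 fibroblast markers and 16.5 and 13.4 TPM for 6 adipocyte markers. In bulk tissue, fewer cells of a type and less RNA per cell cannot be told apart.

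Of the 10 members, 9 were at 10 TPM or more in both libraries, while 21.8% of all nuclear protein-coding genes were. The members spanned from Cav1, above 98.3% of protein-coding genes by mean level, to Myof, above 63%. By mean TPM in the first (gene) table the order was Cav1, Cavin1, Trim72, Cavin4, Cav3, Dysf, Capn3, Cavin2, Cav2 and Myof. A second deposited transcript table, estimated from the reads themselves and in the layout of another program, gave mean levels 1.17 to 1.74 times as high, with a median of 1.42 over the members against 1.47 over all protein-coding genes. In 5 of the 9 steps of the order, both libraries of the higher gene lay above both of the next in both tables: Cavin1 above Trim72, Trim72 above Cavin4, Cav3 above Dysf, Cavin2 above Cav2, and Cav2 above Myof. Cav1 and Cavin1 overlapped, as did Capn3 and Cavin2. Cavin4 with Cav3, and Dysf with Capn3, were separate in the first table only. By mean TPM the second table put Cavin1 above Cav1, Cav3 above Cavin4, and both Cavin2 and Capn3 above Dysf.

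**Figure D1:**
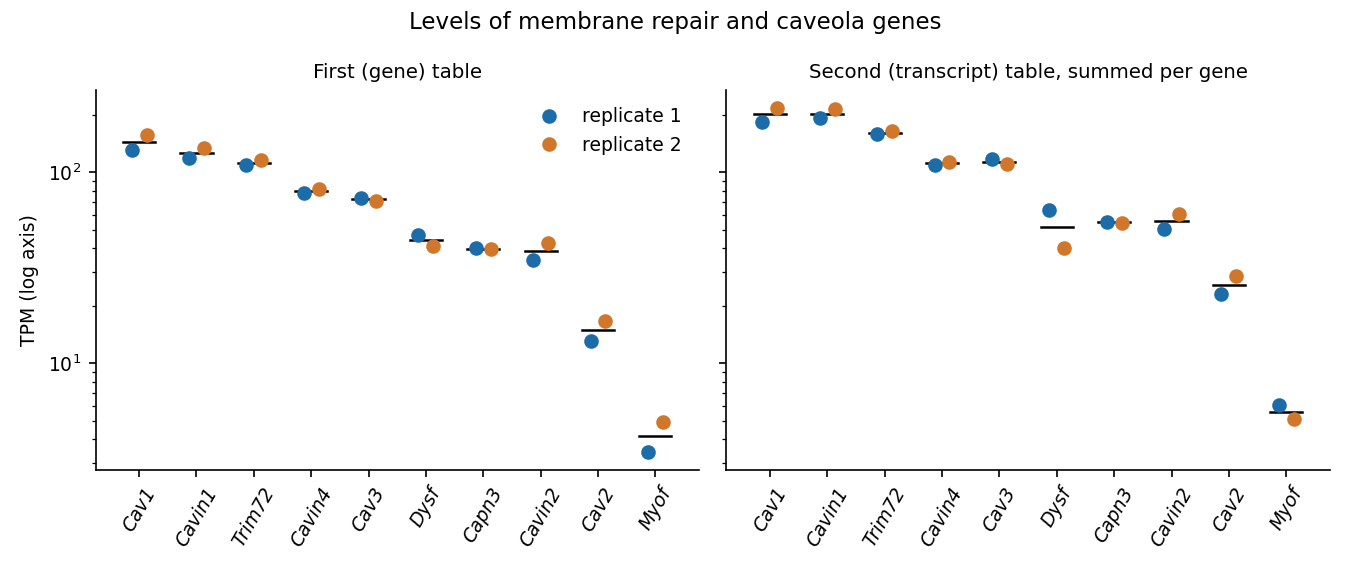
Levels of the 10 genes in TPM on a log axis, by gene, in the first (gene) table on the left and the second (transcript) table, summed per gene, on the right. Points are replicate 1 and replicate 2 and bars are their means, and in both tables Cav1, Cavin1 and Trim72 lie highest and Myof lowest.

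Among the 4 members that are neither caveolins nor cavins, Trim72 was the highest. Trim72 (ENSMUSG00000042828.12, chromosome 7, 128003949 to 128011033, plus strand, mm10) stood at 109.0 TPM in replicate 1 and 115.8 in replicate 2, a mean of 112.4 ± 4.85 (SD, n = 2). Dysf (ENSMUSG00000033788.15, chromosome 6, 84008590 to 84211060, plus strand) stood at 47.3 TPM in replicate 1 and 41.2 in replicate 2, a mean of 44.3 ± 4.33 (SD, n = 2). Dysf was thus lower than Trim72 in both mice. Capn3 (ENSMUSG00000079110.11, chromosome 2, 120456019 to 120504913, plus strand), the calpain protease of muscle that binds titin, had 40.0 and 39.5 TPM in replicates 1 and 2, a mean of 39.8 ± 0.368 (SD, n = 2). Its start overlaps Ganc, a neighbour on the same strand with 1255 and 1098 counts, so reads there could be shared. Capn3-207 and Capn3-211, the transcripts that begin at that start, were at 0 in both libraries of both tables. The leading transcript, Capn3-202, begins at base 120463579. Myof (ENSMUSG00000048612.16, chromosome 19, 37899036 to 38043577, minus strand), the ferlin closest to dysferlin and known for a part in myoblast fusion, stood at 3.42 TPM in replicate 1 and 4.92 in replicate 2, a mean of 4.17 ± 1.06 (SD, n = 2). It was the only member below 10 TPM.

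The ferlin family was carried almost wholly by Dysf at this age. Dysf held 87.5% of the summed TPM of 6 ferlin genes in replicate 1 and 85.2% in replicate 2, a mean of 86.3% ± 1.60 (SD, n = 2). Myof held 6.32% and 10.2%, and Fer1l6, a ferlin of less known function in mammals, held 5.93% and 4.07%. The Fer1l6 share rested on fewer reads, at 181 and 147 counts in replicates 1 and 2 against 631 and 678 for Myof. Otof, the ferlin of hair cell synapses, held 0.277% and 0.558%. The log2 ratio of Dysf over Myof was 3.75 in replicate 1 and 3.04 in replicate 2, a mean of 3.40 ± 0.50 (SD, n = 2), or 10.5-fold. In the second table the mean was 3.16 ± 0.30, and Dysf lay above Myof in both libraries of both tables. Among the calpains the muscle type did not stand out: of the TPM of Capn1, Capn2 and Capn3 together, Capn3 made up 37.5% ± 1.24 (SD, n = 2), with Capn1 at 31.4% ± 1.73 and Capn2 at 31.2% ± 0.487. Capn1 and Capn2 are the widely expressed calpains. Capn3 exceeded Capn1 by 0.26 ± 0.13 and Capn2 by 0.27 ± 0.03 on the log2 scale, higher in both libraries each time.

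Among the caveolins the widely expressed Cav1 was higher than the muscle-type Cav3. Cav1 (ENSMUSG00000007655.16, chromosome 6, 17306335 to 17341452, plus strand), the scaffold of caveolae outside muscle fibres, stood at 131.1 TPM in replicate 1 and 157.1 in replicate 2, a mean of 144.1 ± 18.4 (SD, n = 2). Cav3 (ENSMUSG00000062694.7, chromosome 6, 112459505 to 112472872, plus strand), its counterpart in the muscle fibre, had 73.6 and 70.8 TPM in replicates 1 and 2, a mean of 72.2 ± 2.02 (SD, n = 2). The log2 ratio of Cav3 over Cav1 was -0.83 in replicate 1 and -1.15 in replicate 2, a mean of -0.99 ± 0.22 (SD, n = 2), so that Cav1 was 1.99-fold the higher. Both libraries of both tables gave that direction. Cav2 (ENSMUSG00000000058.6, chromosome 6, 17281185 to 17289115, plus strand), which needs Cav1 to reach the cell surface, stood at 13.04 TPM in replicate 1 and 16.77 in replicate 2, a mean of 14.9 ± 2.64 (SD, n = 2). Cav3 exceeded Cav2 by 2.28 ± 0.30 on the log2 scale, or 4.86-fold. Of the summed caveolin TPM, Cav1 held 62.2% ± 2.84, Cav3 held 31.4% ± 3.45 and Cav2 held 6.42% ± 0.612. Cav2 and Cav1 are neighbours on chromosome 6, with 17219 bases between the end of Cav2 and the start of Cav1.

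The cavins showed the same order between a widely expressed and a muscle-type member. Cavin1 (ENSMUSG00000004044.9, chromosome 11, 100956733 to 100970887, minus strand), the cavin without which caveolae do not form, stood at 118.7 TPM in replicate 1 and 135.0 in replicate 2, a mean of 126.8 ± 11.5 (SD, n = 2). Cavin4 (ENSMUSG00000028348.7, chromosome 4, 48663514 to 48673502, plus strand), also known as MURC and found in heart and skeletal muscle, had 78.2 and 81.7 TPM, a mean of 79.9 ± 2.48 (SD, n = 2). Cavin2 (ENSMUSG00000045954.7, chromosome 1, 51289126 to 51302960, plus strand), a cavin that shapes caveolae in endothelium, stood at 34.8 TPM in replicate 1 and 42.6 in replicate 2, a mean of 38.7 ± 5.55 (SD, n = 2). Cavin4 thus lay below Cavin1 and above Cavin2 in both mice. The log2 ratio of Cavin4 over Cavin1 was -0.66 ± 0.09 (SD, n = 2) in the first table and -0.86 ± 0.06 in the second, and that of Cavin4 over Cavin2 was 1.05 ± 0.16 and 1.01 ± 0.15. Of the summed TPM of the 4 cavin genes, Cavin1 held 48.3% ± 0.560, Cavin4 held 30.5% ± 1.48, Cavin2 held 14.7% ± 0.947 and Cavin3 held 6.41% ± 0.0244. The summed TPM of the caveolins was 217.7 in replicate 1 and 244.7 in replicate 2, against 247.5 and 277.0 for the cavins.

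At the level of transcripts, the 10 genes have 61 annotated forms, 39 of them protein-coding, and 18 were at 0 in both libraries. Cav3, Cavin2 and Cavin4 have 1 annotated transcript each, so their shares and leading transcripts were fixed in advance. With these 3 included, the leading transcript held at least 50% of its gene's TPM in both libraries for 8 of the 10 genes. It was the same transcript in both tables for 9. Trim72-202 held 99.4% and 98.0% of Trim72 in replicates 1 and 2, Capn3-202 held 92.3% and 96.5% of Capn3, and Cavin1-201 held 92.2% and 90.7% of Cavin1. The other genes were divided among several forms. In Cav2, Cav2-201 held 87.4% and 86.9%, and Cav2-203, a form with a shorter reading frame of 117 codons against 162, held 12% in each library of the first table and 31.2% and 30.4% in the second. These shares are estimates that depend on how reads common to several forms were divided.

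**Figure D2:**
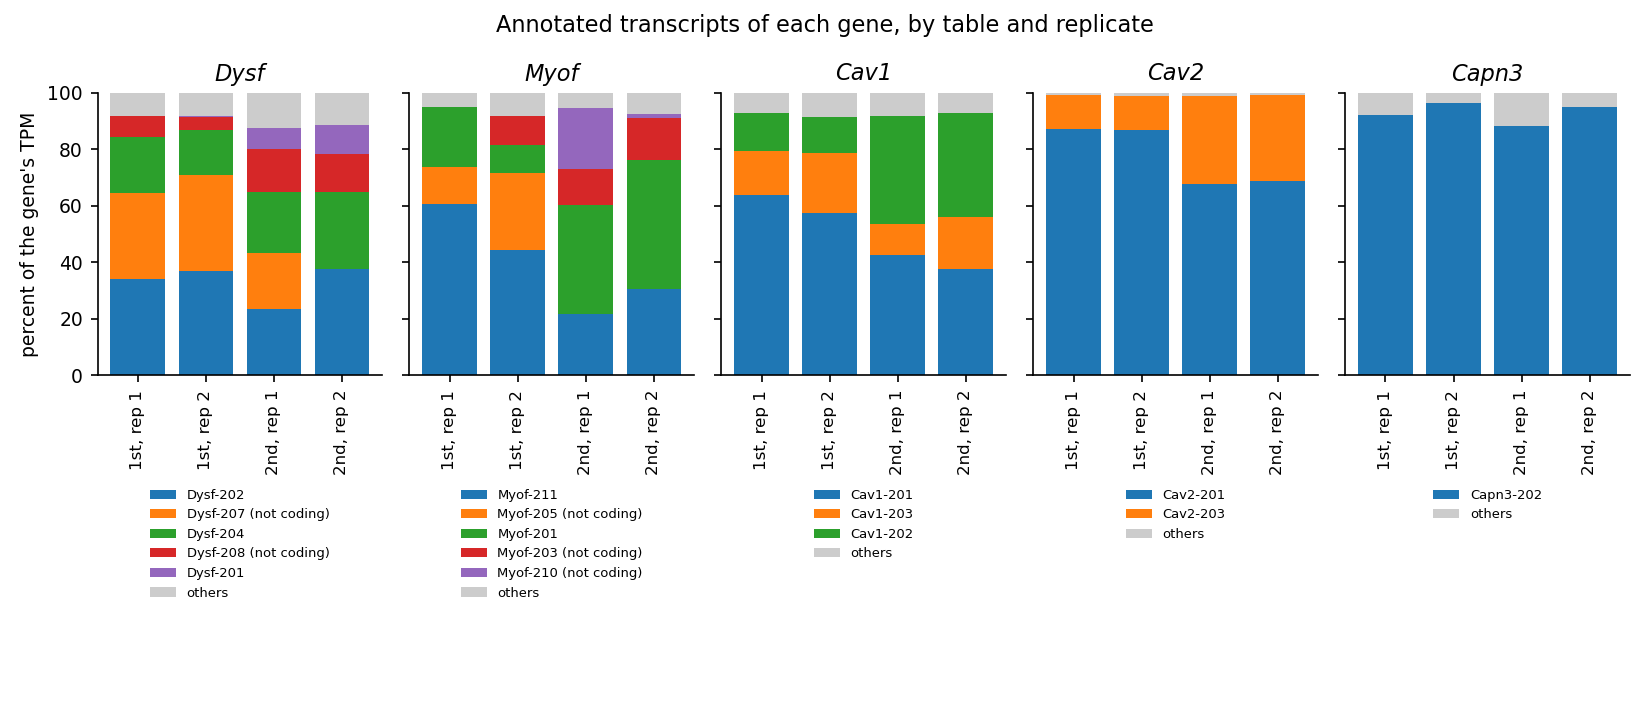
Percent of each gene's TPM held by its annotated transcripts, for Dysf, Myof, Cav1, Cav2 and Capn3, which have several annotated coding forms. Stacked bars show replicates 1 and 2 in the first table (1st) and the second table (2nd). Transcripts that reach 10% in any bar are shown by name and the rest in grey, and the bars of Dysf, Myof and Cav1 differ between the tables more than those of Capn3.

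The gene-level value of Dysf rested in part on a short noncoding form. Dysf-207, a processed transcript of 404 bases at the 3′ end of the gene, held 30.5% of the gene's TPM in replicate 1 and 34.2% in replicate 2, with 142.6 and 139.4 expected counts. The coding transcripts held 60.8% and 60.6% of the TPM but 96.4% and 96.7% of the counts. In the second table Dysf-207 was at 12.7 TPM in replicate 1 and listed at 0 in replicate 2. Over coding transcripts alone, Dysf stood at 28.8 TPM in replicate 1 and 24.9 in replicate 2, a mean of 26.9 ± 2.71 (SD, n = 2). On that measure it lay below Capn3, at 37.7 and 38.9 TPM, and below Cavin2, at 34.8 and 42.6 TPM. In Myof, the gap between the mice in the first table lay in forms not annotated as coding. Its coding transcripts stood at 2.80 TPM in replicate 1 and 2.67 in replicate 2, a mean of 2.74 ± 0.0919 (SD, n = 2), against gene-level values of 3.42 and 4.92 TPM. Myof-205, a short form annotated as a target of nonsense-mediated decay, held 13.1% and 27.4% of the gene in the first table and 0 and 0.103% in the second. There the gene-level gap ran the other way, at 6.03 TPM in replicate 1 and 5.13 in replicate 2, with Myof-210, a retained intron form, at 1.31 and 0.0642 TPM. Myof-211 led in the first table, at 60.7% and 44.3%, and Myof-201 in the second, at 38.5% and 45.5%.

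Full-length dysferlin can start from either of 2 first exons and can carry or skip several in-frame cassettes, and these variable exons are shown here because they set which dysferlin is made. Of the TPM of the 12 coding Dysf transcripts, the upstream first exon was in 43.9% in replicate 1 and 34.4% in replicate 2, and the downstream one in 56.1% and 65.6%. In the second table the upstream share was 48.4% and 40.8%. In both tables it was higher in replicate 1, and its mean was 39.2% ± 6.70 (SD, n = 2) in the first. The leading transcript of the downstream start, Dysf-202, held 34.0% and 36.8% of the gene, and that of the upstream start, Dysf-204, held 20.1% and 16.0%. The coding part of each first exon and the cassettes of 93, 42 and 63 bases, from the GENCODE M21 transcripts on GRCm38, plus strand, read 5′ to 3′ as follows.
Dysf upstream start, 88 coding bases (chr6:84008915-84009002): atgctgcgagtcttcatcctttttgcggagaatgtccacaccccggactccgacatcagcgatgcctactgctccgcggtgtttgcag
Dysf downstream start, 91 coding bases (chr6:84019518-84019608): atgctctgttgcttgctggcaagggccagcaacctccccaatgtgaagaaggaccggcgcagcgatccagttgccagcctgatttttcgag
Dysf cassette of 93 bases (chr6:84064471-84064563): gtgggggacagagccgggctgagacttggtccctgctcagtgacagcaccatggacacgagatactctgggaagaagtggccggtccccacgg
Dysf cassette of 42 bases (chr6:84096477-84096518): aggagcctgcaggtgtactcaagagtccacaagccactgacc
Dysf cassette of 63 bases (chr6:84157139-84157201): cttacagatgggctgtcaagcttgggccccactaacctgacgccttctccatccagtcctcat
The cassette of 42 bases was the one mostly included, in 91.3% of coding Dysf TPM in replicate 1 and 87.2% in replicate 2. The cassette of 93 bases was mostly skipped, with 9.14% and 8.82% inclusion, as was that of 63 bases, with 10.3% and 8.10%. The second table gave the same order, at 87.9% and 86.0%, 12.6% and 12.1%, and 15.4% and 8.97%. Each cassette keeps the reading frame, since 93, 42 and 63 bases are whole numbers of codons (31, 14 and 21).

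**Figure D3:**
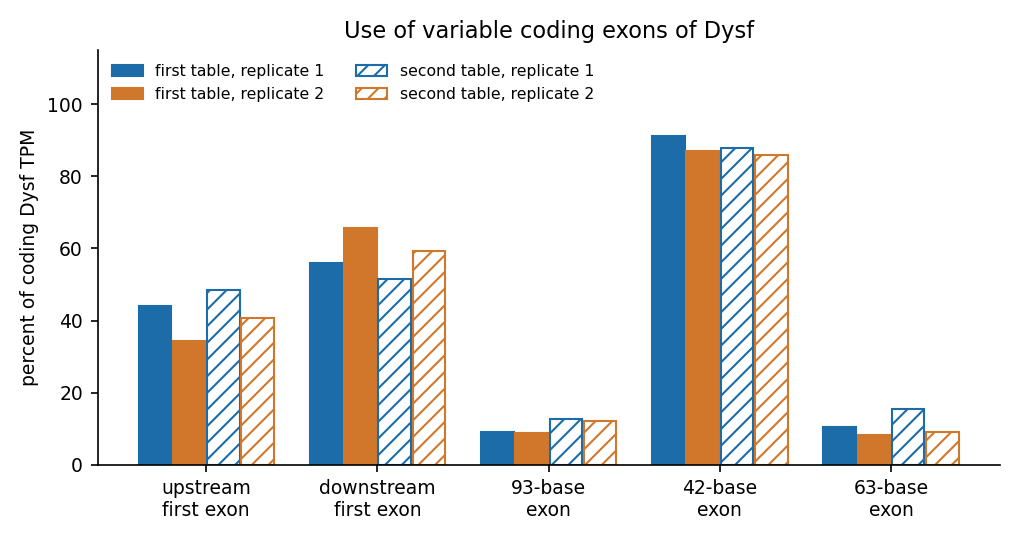
Percent of coding Dysf TPM that carries each variable exon, for replicates 1 and 2 in the first table (filled bars) and the second (hatched bars). The cassette of 42 bases is above 85% in all 4 bars, the cassettes of 93 and 63 bases are below 16%, and the upstream start is higher in replicate 1 in both tables.

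Capn3 was made almost wholly in its long form. Transcripts from the upstream start with all variable exons held 98.1% of coding Capn3 TPM in replicate 1 and 98.0% in replicate 2, and the second table gave 94.9% and 97.1%. The downstream start held 1.89% and 1.98%. The exon of 144 bases was in 99.3% and 100% of coding Capn3 TPM, and those of 18 and 114 bases in 98.1% and 98.0%. Their sequences follow, since they are in-frame blocks that can be left out (the exon of 144 bases is in 3 of the 6 coding transcripts; GRCm38, plus strand, GENCODE M21 transcripts).
Capn3 exon of 144 bases (chr2:120486333-120486476): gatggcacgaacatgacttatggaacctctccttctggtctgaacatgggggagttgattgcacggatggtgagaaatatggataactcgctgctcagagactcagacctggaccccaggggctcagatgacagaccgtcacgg
Capn3 exon of 18 bases (chr2:120498968-120498985): aaaaagaaaaaaaacaag
Capn3 exon of 114 bases (chr2:120501211-120501324): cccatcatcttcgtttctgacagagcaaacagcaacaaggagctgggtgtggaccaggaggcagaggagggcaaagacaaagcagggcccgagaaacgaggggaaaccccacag
Only 1 of the 6 coding transcripts of Capn3 in the annotation carries the exons of 18 and 114 bases, the leading Capn3-202.

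Cav1 was divided between its known long and short forms, which are transcribed from different starts. Cav1-201 and Cav1-205 encode 178 codons and begin at bases 17306335 and 17306345, and Cav1-203 and Cav1-202 encode 147 codons and begin at bases 17307278 and 17307640. Of the TPM of these 4 transcripts, the longer form held 70.5% in replicate 1 and 64.9% in replicate 2, and the shorter form 29.5% and 35.1%. The second table gave the shorter form 50.3% and 56.4%. In both tables the shorter form had the lower share in replicate 1, but which form was the more abundant depended on the table. By transcript, Cav1-201 held 64.0% and 57.6% of the gene, Cav1-203 15.4% and 21.1%, and Cav1-202 13.4% and 12.8% in the first table. In the second, Cav1-203 held 10.92% and 18.65%, and Cav1-202 held 38.4% and 36.9%. The lower share of the shorter form in replicate 1 thus lay in Cav1-203, since Cav1-202 was slightly higher there in both tables.

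The promoters of Cav1-201 and Cav1-202, 1 transcript of each Cav1 form, and of the muscle types Cav3 and Cavin4 are shown here, as the 150 bases before each start (RefSeq table, GRCm38.p6, plus strand). Capitals mark the E-box pattern, CANNTG, which reads the same on both strands and is the kind of site that MyoD-family factors bind.
Cav1 promoter before Cav1-201, longer form (chr6:17306185-17306334): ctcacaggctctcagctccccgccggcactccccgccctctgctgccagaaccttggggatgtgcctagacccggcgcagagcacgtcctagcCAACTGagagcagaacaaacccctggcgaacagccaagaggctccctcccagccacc
Cav1 promoter before Cav1-202, shorter form (chr6:17307490-17307639): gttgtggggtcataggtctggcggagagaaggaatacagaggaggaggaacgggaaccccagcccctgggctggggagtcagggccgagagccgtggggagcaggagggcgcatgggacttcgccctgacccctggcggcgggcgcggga
Cav3 promoter (chr6:112459355-112459504): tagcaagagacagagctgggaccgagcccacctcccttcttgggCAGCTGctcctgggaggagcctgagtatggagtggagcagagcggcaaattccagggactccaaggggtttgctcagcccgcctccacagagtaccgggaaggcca
Cavin4 promoter (chr4:48663364-48663513): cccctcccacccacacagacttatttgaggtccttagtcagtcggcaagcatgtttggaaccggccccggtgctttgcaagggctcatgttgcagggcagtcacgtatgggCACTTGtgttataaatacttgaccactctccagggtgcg
The RefSeq table holds 14 promoters for the 10 members, of which 13 run on into an annotated transcript of the same gene. CANNTG was found in 6 of the 14 windows, against 47.7% of 32851 windows of the same length in the table. Both Cavin1 windows (chr11:100970618-100970767 and chr11:100970616-100970765, minus strand) had no match. They share nearly all their bases and lie within the gene, downstream of the Cavin1-201 start at base 100970887. CAGCTG, a form of the pattern often found at muscle genes, was in 1 of the 14, that of Cav3, against 8.39% of all windows. The pattern in the Cavin4 window was CACTTG and that before Cav1-201 was CAACTG, while the window before Cav1-202 had no match. Among the muscle types not printed here, both Dysf windows and the window at the upstream start of Capn3 had no match either. Cav1-203, the other transcript of the shorter form, starts elsewhere, and its promoter was not analysed here. Of the 6 windows with a match, that of Trim72 lies before Trim72-201, which held 0.570% and 2.01% of the gene, and 1 lies at the downstream start of Capn3, which held 1.89% and 1.98% of its coding TPM. The window before the leading Trim72-202 was not analysed here. These are matches of letters in a window.

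Between the mice, 9 of the 10 members had a scaled ratio below 0, lower in replicate 1, where 55.9% of 10954 protein-coding genes averaging at least 100 expected counts were. Each ratio is that of replicate 1 over replicate 2 after TMM scaling, which sets the bulk of genes level between libraries, and its 95% exact binomial interval covers counting error only. The median log2 ratio was -0.16 over the members and -0.02 over all such genes. A log2 ratio past 0.32 either way was taken as a call. Called were 2 of 10 members, both lower in replicate 1, while 9.69% of all these genes were called in either direction, 5.61% as lower and 4.07% as higher in replicate 1. They were Cav2, with 1006 counts in replicate 1 and 1290 in replicate 2, a log2 ratio of -0.43 (-0.55 to -0.31), and Cavin2, with 3332 and 4089 counts, a log2 ratio of -0.37 (-0.43 to -0.30). No member was past 1.5-fold.

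The widely expressed caveola genes differed more between the mice than their muscle-type relatives. Cav1 had 8648 counts in replicate 1 and 9672 in replicate 2, a log2 ratio of -0.23 (-0.27 to -0.19), and Cavin1 had 12200 and 13713 counts, a log2 ratio of -0.24 (-0.27 to -0.20). For Cav3, with 2526 and 2431 counts, the log2 ratio was -0.01 (-0.10 to 0.07), and its sign was not settled at this depth. Scaled by library totals it was 0.03 and by spike-in totals 0.02, which leaves 8 of the 10 members lower in replicate 1, where 44.5% and 47.4% of all these genes were lower. For Cavin4, with 4957 and 5185 counts, it was -0.13 (-0.19 to -0.08). The intervals of Cav1, Cav2, Cavin1 and Cavin2 thus all lay below that of Cav3. Trim72, at -0.16 (-0.20 to -0.11), Capn3, at -0.11 (-0.17 to -0.04), and Myof, at -0.17 (-0.33 to -0.01), were also lower in replicate 1. Dysf was higher in replicate 1, with 6365 counts in replicate 1 and 5498 in replicate 2, a log2 ratio of 0.14 (0.09 to 0.19). With 2 mice these ratios describe the pair of animals, and the smallest two-sided p that exact sign flips of 2 values allow is 0.5.

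**Figure D4:**
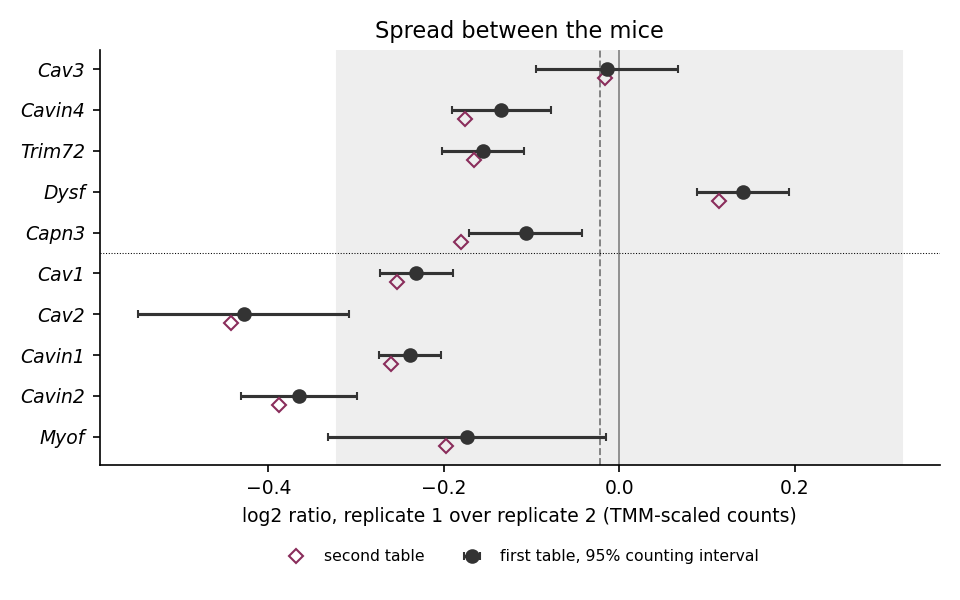
Log2 ratio of replicate 1 over replicate 2 for each member, from TMM-scaled counts, with 95% counting intervals (filled points) and the second table's ratio (open diamonds). The grey band spans a log2 ratio of 0.32 each way, the dashed line is the median of all genes at -0.02, muscle types stand above the dotted line and widely expressed genes below it, and Cav2 and Cavin2 lie outside the band.

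Markers of vessel cells differed between the mice in the same direction as these genes. Over all protein-coding genes averaging at least 100 counts, 55.9% were lower in replicate 1, and 44.5% by library totals. Of 8 endothelial markers, 7 were lower in replicate 1, and their log2 ratios had a median of -0.20 and a range of -0.43 to 0.02. All 6 mural markers were lower in replicate 1, with a median of -0.20 and a range of -0.44 to -0.04. All 3 adipocyte markers averaging at least 100 counts had log2 ratios above 0, with a median of 0.16 and a range of 0.02 to 0.86. Adipoq, which encodes adiponectin, was at 6.42 and 6.51 TPM in replicates 1 and 2, Plin1, the lipid droplet coat, at 6.19 and 3.27 TPM, and Cidec at 2.74 and 2.60 TPM, while Lep, Retn and Adrb3 were below 1 TPM. Plin1 was past 0.32, at 0.86 (0.61 to 1.12). All 6 fibroblast markers were higher in replicate 1, their median being 0.10, and 5 of 6 muscle fibre markers were lower, with a median of -0.08. Of 5 macrophage markers averaging at least 100 counts, 2 were lower and 3 higher, with a median of 0.01 and a range of -0.34 to 0.17. Scaled by library totals, 5 of the 6 mural markers and 4 of the 6 muscle fibre markers were lower, and the counts for endothelial, adipocyte, fibroblast and macrophage markers were as above. The part of vessel cells in the ratios of Cav1, Cav2, Cavin1 and Cavin2 was not tested.

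Around the members, the wider repair and caveola genes were mostly well expressed. Of 28 listed repair genes, 27 were found, and 19 of these were at 10 TPM or more in both libraries. Bin1, whose protein bends membranes and shapes T-tubules, was highest at 317.5 TPM on average, followed by Capns1, the small subunit of the calpains, at 136.4 TPM, and Anxa6, an annexin that forms a cap over wounds, at 125.5 TPM. The 3 below 1 TPM were ferlins. Otof had 35 counts in replicate 1 and 62 in replicate 2, Fer1l4 had 1 and 0, and Fer1l5 had 0 in both, where a count of 0 allows up to 3. Of 14 caveola genes, all were found and 11 were at 10 TPM or more in both libraries. Of all nuclear protein-coding genes, 21.8% reached that level, and both lists were chosen for known roles. Cd36, a fatty acid carrier of caveolae in muscle and endothelium, had 151.2 TPM, and Pacsin3, a membrane-bending protein of muscle caveolae, 122.0 TPM.

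The repair list differed little between the mice, and most of the caveola list was lower in replicate 1. Of 24 repair genes averaging at least 100 counts, 17 were lower and 7 higher in replicate 1 (14 and 10 by library totals), 0 were past a log2 ratio of 0.32, and the median log2 ratio was -0.05. Of 14 caveola genes, 13 were lower and 1 was higher (12 and 2 by library totals or spike-ins, where Ehd4 turned), 2 were past 0.32, both lower in replicate 1, and the median was -0.15. Over all protein-coding genes averaging at least 100 counts, 55.9% were lower in replicate 1 (44.5% by library totals, 47.4% by spike-ins). Past 0.32 were 9.69% of them, 5.61% as lower in replicate 1. Apart from Fer1l4, whose ratio rests on 1 count, the widest gaps were those of Otof, at -0.89 (-1.54 to -0.27) on few counts, and Nos3, the nitric oxide synthase of endothelium that caveolin-1 holds inactive, at -0.56 (-0.75 to -0.38) with 427 and 601 counts. The other caveola gene past 0.32 was Ehd1, an ATPase of membrane traffic, at -0.36 (-0.45 to -0.27). The one higher in replicate 1 was Nos1, the neuronal type that is also found at the muscle surface, at 0.28 (0.09 to 0.46), though its TPM was 2.18 in replicate 1 and 2.56 in replicate 2.

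**Figure D5:**
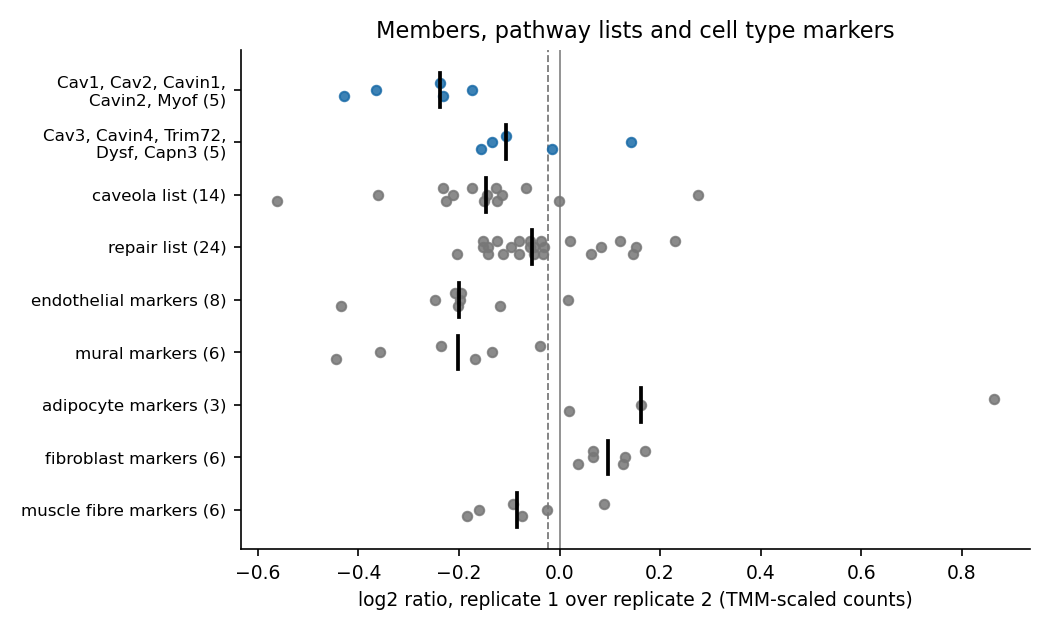
Log2 ratio of replicate 1 over replicate 2 for each gene (points) of the widely expressed members, the muscle-type members, the wider caveola and repair lists and the marker lists of 5 cell types, with the number of genes in brackets and the median as a black bar. The macrophage list and the satellite and myoblast list are not drawn. The dashed line is the median of all genes, the caveola list has its median at -0.15, and the endothelial and mural markers have theirs at -0.20.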

How the data were processed

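The labels put the 2 libraries in 1 group. The first deposited tables, of genes and of transcripts, have the columns of RSEM. Per the file headers they hold the authors' expected counts, posterior means and TPM. The notes deposited with them name alignments to the mm10 transcriptome and annotation M21 of GENCODE. The authors' TPM is scaled over all listed features, spike-ins included. The deposited percent of each transcript is its percent of the gene's TPM. A second deposited transcript table, in the kallisto column layout, holds estimated counts and TPM made from a FASTQ file. Its counts summed to 37386161 in replicate 1 and 36335649 in replicate 2. No program version and no strand setting was given in the sources used here. Antisense partners of the members had at most 9 counts.

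Expected counts were rounded for edgeR 4.0.16, whose TMM factors scaled the ratios (endogenous genes averaging at least 10 counts), and for DESeq2 1.42.0 size factors, in R 4.3.3. Spike-ins, which took 0.741% and 0.735% of counts, and features with no gene stayed out. Ratios used a prior count of 0.5, pair ratios a pseudocount of 0.1 TPM, and calls a log2 ratio past 0.32. Intervals are 95% exact binomial (scipy 1.17.1, Python 3.11.15, pandas 2.3.3). The scaling and the ratios were tested on simulated data.

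The members, gene lists and comparisons were chosen with earlier results of these data known. Named are all members, their leading transcripts and those at 10% or more in both libraries, and listed genes at 100 TPM or more, below 1 TPM or among the 3 with the widest ratio. Other genes and transcripts were named after their values were seen (Ehd1, Nos1, Fer1l6, Capn1, Capn2, Cavin3, adipocyte markers, Ehd4, satellite and myoblast markers, overlapping genes, Myof-201, Myof-210, Trim72-201 and Cav1-205). Of the repair list, Dysfip1 had no match. Protein sequences were not used here. Alternatives were the second table, posterior means, other scalings, thresholds, pseudocounts and leaving out each mouse. TPM of coding transcripts alone and the alternatives for Dysf starts and Cav1 forms were added after seeing the data.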

Additional observations from a re-analysis of the deposited data

How the results depend on the processing

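At 10 TPM or more were 9 members under each table and scaling, with 10 at a threshold of 1 TPM and 8 at 30 TPM. All 7 pair ratios and the median ratio between the mice kept their direction under every alternative run. The levels of all 10 members moved by more than 1 SD in the second table and after rescaling to protein-coding genes, and those of 3 moved over coding transcripts alone. Cavin4 over Cavin1 was -0.66 on the log2 scale, and moved to -0.86 in the second table and -0.53 over coding transcripts. Capn3 over Capn2 was 0.27, and moved to 0.23 in the second table and 0.29 with posterior means. The share of the shorter Cav1 form was 53.4% in the second table, against 32.3% in the first. The upstream share of Dysf moved by less than 1 SD, and 7 leading transcripts held 50% or more in the second table, against 8 in the first. The count of members past a log2 ratio of 0.32 was 2 under each scaling, and 0 at 1.5-fold. Of 70 ratios of single members under other scalings or tables, 67 stayed within their counting interval and 3 moved beyond it. The ratio of Cav3, whose interval spans 0, changed sign from -0.01 to 0.03 by library totals and 0.02 by spike-ins, and no other member's did. Leaving out a mouse leaves no ratio between mice. No paired analysis was possible because the labels give 1 group only. Depth limits Myof and the minor transcripts most. The members, at 631 counts or more in each library, carry counting intervals of up to 0.16 on the log2 scale to each side.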

Other observations

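Genes that overlap the caveolin and cavin genes held few reads. Cav1 and Cav2 both overlap Gm15581, an antisense gene with 1 count in replicate 1 and 0 in replicate 2, and Cavin2 overlaps 9330175M20Rik, with 6 and 9 counts. Satellite and myoblast markers, a cell type in which Myof is known to act, were present: Myog, a factor of differentiating myoblasts, had 60.4 and 59.0 TPM in replicates 1 and 2, and Mymk, the fusion gene of myoblasts, had 21.9 and 22.8 TPM. The other listed markers were lower. In replicates 1 and 2, Pax7 had 3.52 and 3.37 TPM, Myf5 3.56 and 3.88, Mymx 7.94 and 7.80, and Myod1 15.7 and 18.2. After TMM scaling all 6 such markers had log2 ratios below 0, with a median of -0.06, but scaled by library totals 3 did, with a median of -0.02. The shares over all protein-coding genes averaging at least 100 counts were 55.9% and 44.5%.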
